A study of Mus musculus with 48 samples.

Results

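Open chromatin at the genes of the T-box transcription factors T-bet (Tbx21) and Eomesodermin (Eomes) was followed by ATAC-seq, in which the transposase Tn5 cuts accessible DNA, across 21 groups of tumour-infiltrating CD8 T cells. Of the 53868 peaks in the deposited table, 23 were assigned to these genes: 9 to Tbx21 and 14 to Eomes. Peaks inside a protein-coding gene went to that gene, those inside several to the one with the boundary closest to the middle of the peak, and intergenic peaks to the closest gene body if it lay within 100 kb. No measured value entered this choice. All 23 peaks were tested, and only the Eomes peak 96.0 kb upstream of the start had libraries at 0 reads, 2 of 48.

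The cells were CD45.1 OT-1 CD8 T cells, whose transgenic receptor recognises an ovalbumin peptide, and all of them carried Cas9. Naive-like donor cells received a guide RNA from a lentivirus with an ametrine reporter, were transferred a day before mice were inoculated with B16-OVA, a melanoma line expressing ovalbumin, and were sorted 15 days after inoculation. The guides were the control called OTC, Zfp219 and Dusp5, and hosts were aged or young (read from the letters A and Y of the sample titles). Sorted states were Tprog (progenitor exhausted, Slamf6+ Tim-3-), Ttran (transitory and effector-like, Slamf6+ Tim-3+), Tterm (terminally exhausted, Slamf6- Tim-3+) and Ttad (dysfunctional and age-associated, Slamf6- Tim-3-). Aged hosts gave 2 libraries for each guide in each of the 4 states. Young hosts gave 2 libraries for each guide in Tprog and 3 in Ttran and in Tterm, and no young Ttad library is analysed here. Cells from independent mice were pooled into a library; the mice of each pool, and whether states of a guide share mice, are not recorded, so p-values measure only the spread between these libraries. Aged and young libraries carry separate sample numbering in the table's header, so host age and that batch of libraries cannot be told apart.

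T-bet and Eomes bind the same short T-box element and share many target genes in cytotoxic lymphocytes. T-bet is induced by antigen receptor and interleukin-12 signalling and drives interferon-gamma and effector genes, while Eomes supports memory cells through the interleukin-2 receptor beta chain and is also known for its place in exhausted CD8 T cells. Their balance differs between subsets of exhausted cells. Accessibility of a gene is not its transcription, and neither RNA nor protein was measured.

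The 250 bases upstream of each annotated start, read 5′ to 3′ from the RefSeq table for GRCm38.p6, are shown because both genes had a peak over the start that differed little between groups. The Tbx21 stretch is chr11:97115332-97115581 on the minus strand and the Eomes stretch chr9:118477939-118478188 on the plus strand. Capitals mark GGGCGG and TTCCT matches for Tbx21 and CCAAT and TATATAA matches for Eomes.
Tbx21: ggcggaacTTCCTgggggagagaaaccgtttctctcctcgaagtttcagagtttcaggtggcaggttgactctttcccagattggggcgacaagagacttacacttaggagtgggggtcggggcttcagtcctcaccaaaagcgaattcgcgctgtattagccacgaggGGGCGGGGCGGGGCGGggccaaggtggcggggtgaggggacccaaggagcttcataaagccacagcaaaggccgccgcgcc
Eomes: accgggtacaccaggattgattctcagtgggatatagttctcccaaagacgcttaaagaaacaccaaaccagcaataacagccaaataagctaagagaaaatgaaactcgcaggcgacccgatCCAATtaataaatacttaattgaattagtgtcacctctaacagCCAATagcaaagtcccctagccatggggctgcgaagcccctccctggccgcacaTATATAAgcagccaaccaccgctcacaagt
Motifs were searched on both strands from 250 bases before to 50 after the start, the length of all 32851 promoters in the table. Tbx21 had 3 copies of the GC box GGGCGG, at 81, 76 and 71 bases upstream, each sharing 1 base with the next, and Eomes had none; 35.7% of all promoters held the motif. Eomes had CCAAT at 127 and 84 bases upstream and Tbx21 had it on the other strand at 170 bases upstream, with 37.4% of promoters holding it. TATATAA lay 30 bases upstream of the Eomes start and occurred in 3.24% of promoters; it was added after the sequence had been read. The ETS core TTCCT lay 242 bases upstream in Tbx21, and on the other strand 45 bases past the start in Eomes, outside the printed bases; 66.7% of promoters held it. Neither window held TATAAA (13.6% of promoters), the T-box core AGGTGTGA (1.3%) or TCACACC (3.98%), the RUNX core TGTGGT (16.8%), the AP-1 core TGANTCA (7.81%) or the TCF/LEF core CTTTGAT (3.73%). G and C made up 62% of the Tbx21 window and 47.3% of the Eomes window, against a median of 52.7% over all promoters.

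Reads in peaks numbered 5638413 to 29942755 per library. Values below are normalized reads, that is, reads in a peak divided by the size factor of its library, unless they are called log2 differences. All 6 CD8 T cell marker genes (Cd8a, Cd8b1, Cd3e, Cd3d, Cd2 and Lck) had peaks. Summed over these peaks, the libraries held 357 to 459 normalized reads per kb of peak. The CD4 T cell genes Cd4 and Zbtb7b had peaks too, at 186 to 332 per kb. No peak lay in Ncr1, Foxp3, Ms4a1, Cd79a, Csf1r, Lyz2, Adgre1, Tyr, Dct or Sox10, markers of NK cells, regulatory T cells, B cells, myeloid cells and melanoma. In bulk libraries a smaller share of cells with an open site and a less open site in each cell cannot be told apart.

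Peaks are named by the distance of their middle from the start of the gene, with a minus sign for upstream; coordinates are those of the table, in mm10. Tbx21 (Entrez gene 57765, chr11:97098007-97115331, minus strand) had the signal of its assigned peaks in a compact block. The peak at +5.8 kb (chr11:97108837-97110287, in the gene body) was the strongest, with a mean of 1145 normalized reads over the 48 libraries, and the gene-body peaks at +11.2 kb (chr11:97103339-97104825) and +2.5 kb (chr11:97112361-97113268) had 1055 and 754. Per kb of peak these body peaks held 789, 710.2 and 832 normalized reads, above the 318 of the peak over the start (chr11:97114768-97116220). Upstream peaks at -3.1 kb (chr11:97118187-97118713) and -9.6 kb (chr11:97124401-97125383) had 414 and 357 per kb, and peaks downstream at +19, +23.4 (chr11:97091759-97092185) and +24.7 kb had 45.8 to 81.7. The body peaks stood at the 92 to 97 percentile of all peak means.

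Eomes (Entrez gene 13813, chr9:118478186-118486132, plus strand) was assigned a longer and weaker set of peaks. Its strongest peak covered the start (+0.2 kb, chr9:118477082-118479620, 549 normalized reads and 216 per kb), followed by a peak 1453 bp past the end of the gene (+10.6 kb, chr9:118487585-118490091, 511 and 204 per kb). Upstream lay 11 peaks between -96.0 and -24.6 kb. Those at -61.6 kb (chr9:118416063-118417143), -53.9 kb (chr9:118423674-118424838) and -85.3 kb (chr9:118392651-118393215) had 168, 134 and 118 normalized reads per kb. The weakest was the peak at -96.0 kb, with a mean of 12.8, where single reads weigh most. Peaks at -72.7, -61.6 and -53.9 kb also overlap the long noncoding RNA Platr11, those at -27.0, -24.6 and +0.2 kb overlap Gm33408, and those at +8.6 and +10.6 kb overlap Gm33460. Exon and intron positions were not used here.

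The distance rule sets the edges of both sets. A peak 11.8 kb upstream of Tbx21 with a mean of 889 normalized reads went to Tbkbp1, whose body lay 8592 bp away against 11288 bp for Tbx21. On the other side, a peak of 177 normalized reads went to Osbpl7 at 13779 bp rather than to Tbx21 at 13921 bp. For Eomes, the peak just inside the limit lay 95882 bp from the body with a mean of 12.8, and the peak just outside lay 102660 bp away with a mean of 588 and had no gene. Peaks per gene had a median of 2 over 15017 genes, and 1140 genes had 9 or more and 409 genes 14 or more.

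Summed over the 9 peaks, Tbx21 was highest in aged OTC Tterm, at 4572 normalized reads (libraries at 4558 and 4586), and lowest in aged Dusp5 Tprog, at 3533 ± 97.5 (SD, n = 2), next to aged OTC Tprog at 3649 ± 42.1 (SD, n = 2). Per kb of peak this was 437 to 565 normalized reads over the 21 groups. In the order of groups, neighbours overlapped in their libraries at all but 4 of the 20 steps: below aged OTC Tterm, below aged Dusp5 Tterm, below aged Zfp219 Tprog and above aged Dusp5 Tprog. Eomes was highest in young Zfp219 Tprog, at 2185 ± 37.8 (SD, n = 2), and lowest in aged OTC Ttad, at 1478 ± 98.2 (SD, n = 2), with 110 to 163 per kb, and only the highest group stood clear of its neighbour. The 5 highest Eomes sums were of Zfp219 groups, young Tprog, Ttran and Tterm and aged Tprog and Ttran; aged Zfp219 Ttad and Tterm ranked 13 and 15 of 21. Over the 21 group means the log2 sums of both genes had a Pearson r of -0.447; the groups share guides, hosts and states, so this is a description. Among 12486 genes the patterns most like Tbx21 were Cyth4 (r = 0.918), Laptm5 (0.910), Ehbp1l1 (0.894), Vsir (0.881) and Bcat2 (0.877), and most like Eomes were Ccdc167 (0.856), Clec2l (0.825), Msra (0.822), Dipk1a (0.813) and Itgax (0.803).

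**Figure D1:**
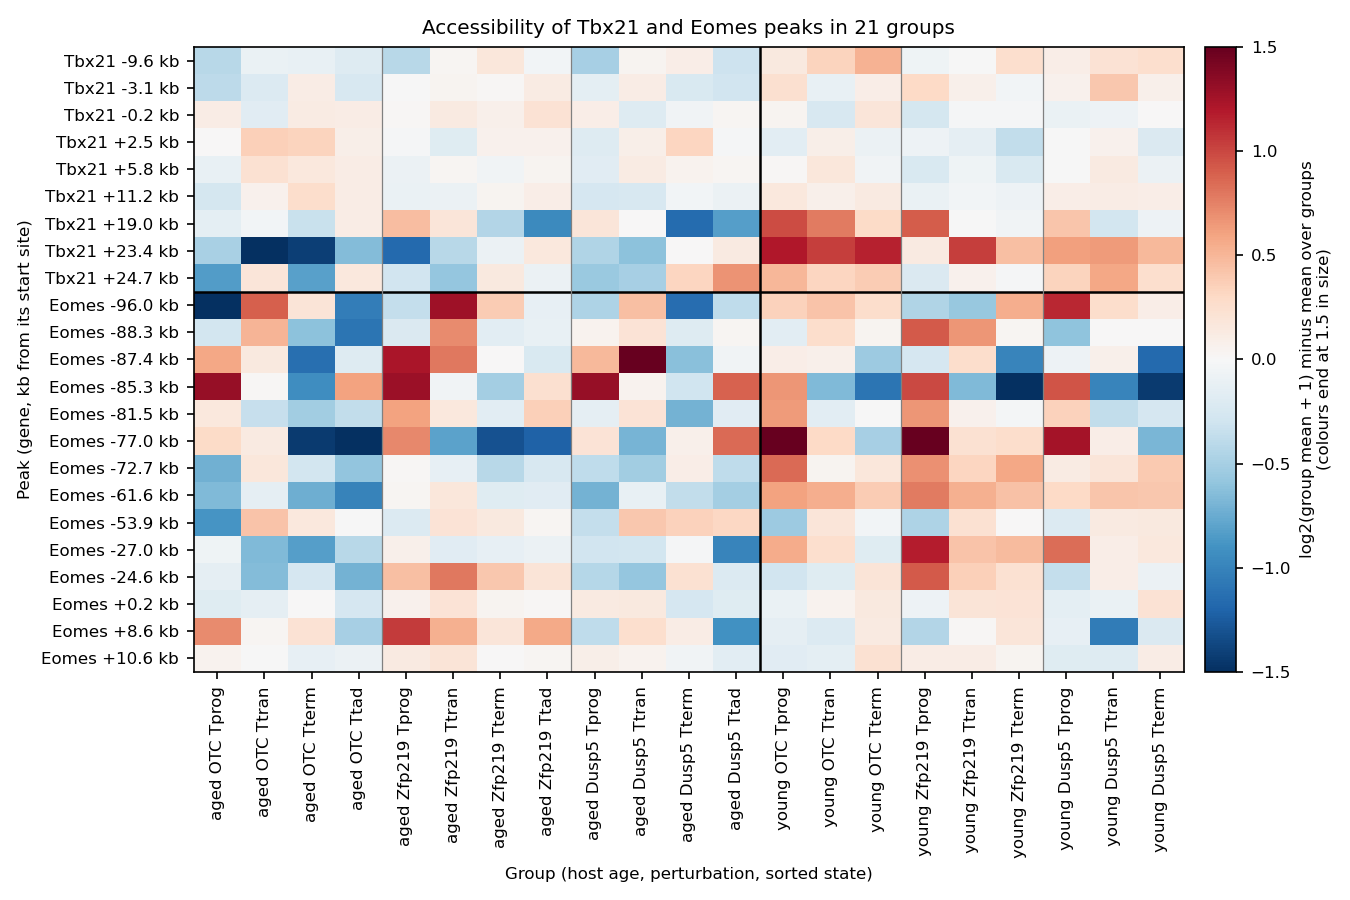
Accessibility of the 23 peaks (rows, by gene and distance from the start) in the 21 groups (columns), as log2(group mean + 1) minus the mean of that peak over the groups; colours end at 1.5 log2 units either way. The Eomes peak at -85.3 kb is red in the Tprog columns and the Eomes peak at -61.6 kb is red in the young columns, whereas the start-site peaks stay near the middle colour.

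The peaks varied by very different amounts. The ratio of the highest to the lowest group mean was 1.40 for the Tbx21 start, 1.39 for the Eomes start, 1.34 for Eomes +10.6 kb, 1.38 for Tbx21 +5.8 kb, 1.44 for Tbx21 +11.2 kb and 1.65 for Tbx21 +2.5 kb. It was 2.04 for Tbx21 -9.6 kb, 2.52 for Eomes -53.9 kb, 3.47 for Eomes -61.6 kb and 8.21 for Eomes -85.3 kb. It reached 16.4 for Eomes -77.0 kb, a weak peak with a mean of 23.9 normalized reads. Upstream Eomes peaks spanned a wider range than the start. So did the weak downstream Tbx21 peaks, with ratios of 4.69 at +19, 9.52 at +23.4 and 2.935 at +24.7 kb. The part of low read numbers in these ratios was not tested. Peaks of a gene did not all move together: over the 21 group means r was 0.743 between Tbx21 +2.5 and +5.8 kb, 0.831 between Eomes -72.7 and -61.6 kb and -0.571 between Eomes -81.5 and -53.9 kb. Across the genes, Tbx21 -9.6 kb and Eomes -85.3 kb had r = -0.772.

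At the start of Tbx21, control cells of aged hosts had 515 and 478 normalized reads in Tprog, 432 and 391 in Ttran, 484 and 518 in Tterm and 468 and 525 in Ttad. Young controls had 476 and 471 in Tprog, 377, 407 and 384 in Ttran and 554, 509 and 503 in Tterm. Ttran was the lowest state in both, and its libraries did not overlap those of Tterm. Group means with the Zfp219 guide were 465, 505, 487 and 537 in aged Tprog, Ttran, Tterm and Ttad, and 383, 454 and 454 in young Tprog, Ttran and Tterm. With Dusp5 they were 493, 403, 445 and 470.3, and 431, 438 and 464. With the Zfp219 guide, Ttran was thus not the lowest state in either age.

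At the start of Eomes, aged controls had 505 and 447 normalized reads in Tprog, 505 and 478 in Ttran, 553 and 531 in Tterm and 434 and 471 in Ttad. Young controls had 453 and 554, 554, 499 and 630.2, and 598, 598 and 593 in Tprog, Ttran and Tterm. No difference between states of OTC cells was called at this peak in either age. Aged Zfp219 means were 565, 623, 555 and 546 in Tprog, Ttran, Tterm and Ttad, and young Zfp219 means 514, 617 and 625. Dusp5 means were 596, 598, 455 and 476 in aged hosts and 488, 506 and 627 in young hosts. With Dusp5, Tterm had the lowest mean of the aged states and the highest of the young ones.

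Progenitor and terminal cells differed most at the distal Eomes peaks. Log2 differences are of log2(normalized reads + 1), which understates changes of weak peaks, and adjusted p is limma's, with Benjamini-Hochberg adjustment over all 53868 peaks and a call at an adjusted p under 0.05. At Eomes -85.3 kb the aged OTC libraries had 140.4 and 155 normalized reads in Tprog, 67.7 and 52.6 in Ttran and 34.9 and 26.6 in Tterm, and the young OTC libraries 99.6 and 89.8, 36.2, 56.3 and 19, and 22.8, 29.9 and 29.2. Tprog was above both other states in every library of either age. Tprog exceeded Tterm by a log2 difference of 2.24 (SE 0.40, adjusted p = 6.45e-06) in aged and 1.77 (SE 0.37, adjusted p = 7.47e-05) in young controls, folds of 4.73 and 3.40 by limma. Both calls held with any single library left out, with a highest adjusted p of 0.00139 without aged OTC Tterm replicate 2 and 0.00533 without young OTC Tprog replicate 1.

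The same peak was called higher in Tprog with both other guides. Zfp219 cells had 146 and 144 normalized reads in aged Tprog against 41.4 and 41.5 in aged Tterm, and 131 and 106 against 15.3, 20.3 and 18.6 in young hosts. Dusp5 cells had 149 and 148 against 58.9 and 37.3 in aged and 105 and 124 against 20.2, 31 and 12.5 in young hosts. In all 6 sets of host age and guide the libraries did not overlap and limma called the difference, from 1.64 in aged Dusp5 to 2.65 in young Zfp219. Over all peaks, limma called 18.8% for aged Zfp219, 26.8% for young Zfp219, 22.9% for aged Dusp5 and 29.8% for young Dusp5. The aged Dusp5 call was lost without 1 library, at adjusted p = 0.0532 without aged Dusp5 Tterm replicate 2. Tprog was also above Ttran at this peak in 6 of 6 sets, each called, with log2 differences of 1.27 to 1.95; limma called 17%, 11.9% and 15.2% of all peaks for aged OTC, Zfp219 and Dusp5 and 16.9%, 23.5% and 19.3% for young ones. Each aged call was lost without 3 of 4 libraries, at an adjusted p of up to 0.13 without aged OTC Ttran replicate 2, 0.187 without aged Zfp219 Ttran replicate 1 and 0.168 without aged Dusp5 Ttran replicate 1. The young OTC call was lost without 1 of 5 (0.0553 without young OTC Ttran replicate 3), and the young Zfp219 and Dusp5 calls held. Ttran means were 57 and 37 with Zfp219 and 61.5 and 29.4 with Dusp5, in aged and young hosts. Which gene this distant peak serves was not tested.

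**Figure D2:**
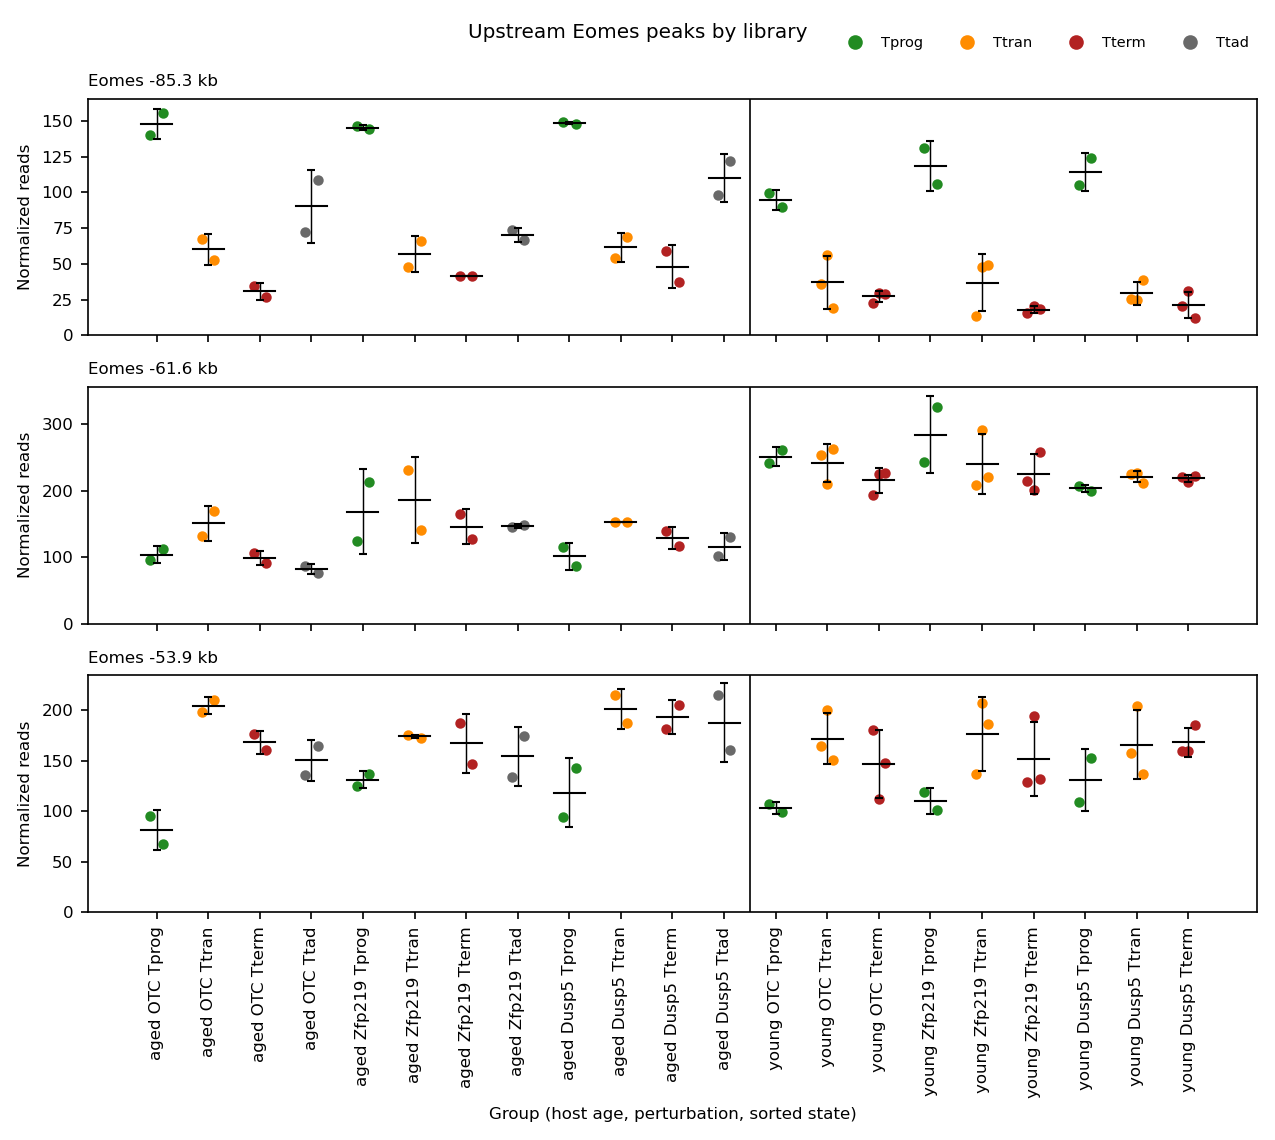
Normalized reads per library at the Eomes peaks at -85.3, -61.6 and -53.9 kb in the 21 groups; points are libraries and bars are group means ± SD. At -85.3 kb the Tprog libraries (89.8 to 155) lie above the Tterm libraries (12.5 to 58.9) in every guide and host age, at -53.9 kb Tprog lies below Tterm, and at -61.6 kb each aged group mean lies below each young group mean.

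Only some markers of other cells moved with this peak. Median values of the NK cell, B cell and melanoma genes were higher in Tprog than in Tterm libraries, and those of the CD4 T cell and myeloid genes were lower. The NK cell genes Klrb1c and Klri2 had peaks, with 38.4 to 116 normalized reads per kb in the 12 Tprog libraries, 20.5 to 81.2 in 15 Ttran, 12 to 64.2 in 15 Tterm and 35.3 to 108 in 6 Ttad libraries; Ncr1, the defining NK receptor, had no peak. The B cell gene Pax5 had 105.6 to 166 per kb in Tprog and 69.1 to 97.9 in Tterm, with no peak in Ms4a1 or Cd79a. The melanoma genes Mitf, Pmel and Mlana had 208 to 321 in Tprog and 164 to 240.0 in Tterm, with no peak in Tyr, Dct or Sox10. The CD4 T cell genes Cd4 and Zbtb7b went the other way, with 186 to 276 in Tprog, 238 to 329 in Ttran, 258 to 332 in Tterm and 221 to 310.2 in Ttad libraries, and no peak in Foxp3. The myeloid genes Cd68, Spi1 and Itgam had 140.5 to 203.5 in Tprog (median 174.9) and 146 to 208.8 in Tterm (median 190.9). Tprog and Tterm libraries overlapped for all of these markers but Pax5. The part of these markers in the Eomes differences was not tested.

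The Eomes peak at -53.9 kb ran the other way. Aged controls had 95.1 and 67.4 normalized reads in Tprog, 199 and 210.4 in Ttran, 177 and 160.4 in Tterm and 136 and 165 in Ttad, and young controls 107 and 99.2 in Tprog, 165, 200.1 and 151 in Ttran and 180.1, 112 and 148 in Tterm. Tprog libraries were the lowest in both ages. Aged Zfp219 means were 131, 174, 167 and 154 in Tprog, Ttran, Tterm and Ttad, and young ones 109.9, 177 and 152. Dusp5 cells had means of 118, 201, 193 and 188 in aged and 131, 166 and 168 in young hosts. Tprog lay below Tterm with no overlap in 6 of 6 sets, but limma called only aged OTC, with a log2 difference of -1.06 (SE 0.23, adjusted p = 0.000223), and aged Dusp5, with -0.73 (SE 0.23, adjusted p = 0.0135). The aged OTC call held with any single library left out, and the aged Dusp5 call did not (highest adjusted p = 0.338 without aged Dusp5 Tprog replicate 1). Against Ttran, the log2 difference of Tprog was -1.34 (SE 0.23, adjusted p = 4.64e-06) in aged and -0.72 (SE 0.21, adjusted p = 0.00932) in young controls by limma. The aged call held without each library, and the young call was lost without 2 of 5 (adjusted p up to 0.107 without young OTC Tprog replicate 2).

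A weak peak at Eomes -77.0 kb (chr9:118400955-118401348) was called higher in Tprog than in Tterm in 5 of the 6 sets of age and guide. Aged controls had 31.7 and 15.1 normalized reads in Tprog and 5.45 and 7.33 in Tterm, and young controls 71.6 and 40.2 and 6.95, 14.2 and 18.6. Young Zfp219 Tprog stood highest of all groups, at 86.2 and 105, against 18.1, 34.8 and 16 in Tterm. Limma called the Tprog excess over Tterm in 5 of 6 sets, all but aged Dusp5, with log2 differences of 1.65 in aged OTC to 2.08 in young Dusp5; aged Dusp5 had 0.19 (adjusted p = 0.871). The aged OTC call was lost without 3 of 4 libraries (adjusted p = 0.379 without aged OTC Tprog replicate 1) and after quantile normalization (0.0764). In aged Zfp219 it was lost without 2 of 4 libraries (adjusted p of up to 0.153 without aged Zfp219 Tprog replicate 1). In young OTC it was lost without 1 library (adjusted p = 0.1 without young OTC Tprog replicate 1). The means of the other groups were 21.1 and 5.82 in aged OTC Ttran and Ttad, 32.1, 10.5, 7.09 and 7.66 in aged Zfp219 Tprog, Ttran, Tterm and Ttad, and 22.2, 11.4, 20.1 and 35.1 in aged Dusp5. In young hosts Ttran means lay at 23.7 (OTC), 22.6 (Zfp219) and 20.5 (Dusp5), and Dusp5 Tprog and Tterm at 46.7 and 11.5.

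Of the 23 peaks, limma called 8 between Tprog and Tterm of aged controls, 3 higher in Tprog and 5 lower, where 20.1% of all peaks were called (8.88% higher and 11.2% lower). In young controls it called 4, 2 in each direction, against 26.5% of all peaks (13.9% and 12.6%). There edgeR called 8 of the 23, and its share of all peaks was not counted. With single libraries left out the aged count was 3 to 5 and the young count 2 to 4. The higher peaks were all Eomes: -85.3, -77.0 and, in aged controls, -87.4 kb, with a log2 difference of 1.71 (SE 0.58, adjusted p = 0.0252), a call lost on leaving out any of the 4 libraries (adjusted p up to 0.155 without aged OTC Tprog replicate 1). The lower ones were mainly Tbx21.

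Of the 9 Tbx21 peaks, 4 were called lower in Tprog than in Tterm of aged controls, and the peak over the start was not among them. At +11.2 kb the aged OTC libraries had 871 and 872 normalized reads in Tprog, 1066 and 1121 in Ttran, 1261 and 1252 in Tterm and 1058 and 1202 in Ttad, and Tprog lay below all other states. Tprog against Tterm had a log2 difference of -0.53 (SE 0.09, adjusted p = 4.21e-06) by limma, a call that held with any single library left out. Limma also called a lower Tprog at +2.5 kb, where the libraries had 708 and 804 in Tprog and 945 and 956 in Tterm (-0.33, SE 0.10, adjusted p = 0.0135), at +5.8 kb, with 1049.6 and 1066 and 1261 and 1294 (-0.27, SE 0.09, adjusted p = 0.0201), and at -3.1 kb, with 171 and 155 and 257 and 205 (-0.49, SE 0.18, adjusted p = 0.0408). Tprog and Tterm libraries did not overlap at any of these 4 peaks, which were picked by their calls. Overlap of libraries was not counted over all peaks, so here and elsewhere it is a description. Over the strongest 10% of all peaks the median log2 difference in this comparison was -0.11, and after quantile normalization, which removes that shift, +2.5 kb (adjusted p = 0.113) and +5.8 kb (0.314) were not called. Leaving out 1 library ended the calls at +2.5 kb (adjusted p = 0.236 without aged OTC Tprog replicate 1) and -3.1 kb (0.383 without aged OTC Tterm replicate 1) for 3 of 4 libraries and at +5.8 kb (0.121 without aged OTC Tterm replicate 2) for all 4.

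In young controls no Tbx21 gene-body peak was called lower in Tprog than in Tterm. At Tbx21 +11.2 kb they had 1215 and 1111 normalized reads in Tprog, 1107, 1163 and 1050.4 in Ttran and 1174, 1149.5 and 1133 in Tterm, and the states overlapped. The Tprog-Tterm difference at this peak differed between host ages by -0.54 (SE 0.13, adjusted p = 0.00523) in limma's interaction test, aged minus young, where 2.32% of all peaks were called. That call was lost after quantile normalization (adjusted p = 0.0824) and without young OTC Tprog replicate 1 (0.0635). The means of the other groups at +11.2 kb were 978, 984, 1077 and 1121 in aged Zfp219 and 877, 888, 1014 and 987 in aged Dusp5, each in the order Tprog, Ttran, Tterm and Ttad. In young hosts they were 972, 1019 and 994 with Zfp219 and 1123, 1132 and 1123 with Dusp5. Young groups thus lay between 972 and 1163, and aged groups between 871 and 1256.

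Upstream of Tbx21 the peak at -9.6 kb was lower in Tprog in both host ages. Aged controls had 243 and 261 normalized reads in Tprog, 293 and 336 in Ttran, 315 and 309.8 in Tterm and 320.3 and 266 in Ttad, and young controls 369.7 and 377 in Tprog, 445, 431 and 397 in Ttran and 454, 521 and 477 in Tterm. The mean of Tprog was below that of Tterm in 6 of 6 sets of age and guide and without overlap in 5, all but young Dusp5. Limma called it in young OTC (-0.37, SE 0.13, adjusted p = 0.0294), aged Zfp219 (-0.58, SE 0.15, adjusted p = 0.0017) and aged Dusp5 (-0.61, SE 0.15, adjusted p = 0.000846); in aged OTC the log2 difference was -0.31 (SE 0.15, adjusted p = 0.134). The young OTC call was lost without 4 of 5 libraries (adjusted p = 0.143 without young OTC Tprog replicate 1) and after quantile normalization (0.0534), the aged Zfp219 call without 2 of 4 (0.0879 without aged Zfp219 Tterm replicate 2), and the aged Dusp5 call held without each library. Aged Zfp219 means were 251, 344, 378 and 326 in Tprog, Ttran, Tterm and Ttad, and aged Dusp5 means 237, 345, 362 and 272. Tprog was the lowest state with each of these guides. Young Zfp219 means were 322, 335 and 402, and young Dusp5 means 361, 392 and 402.

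**Figure D3:**
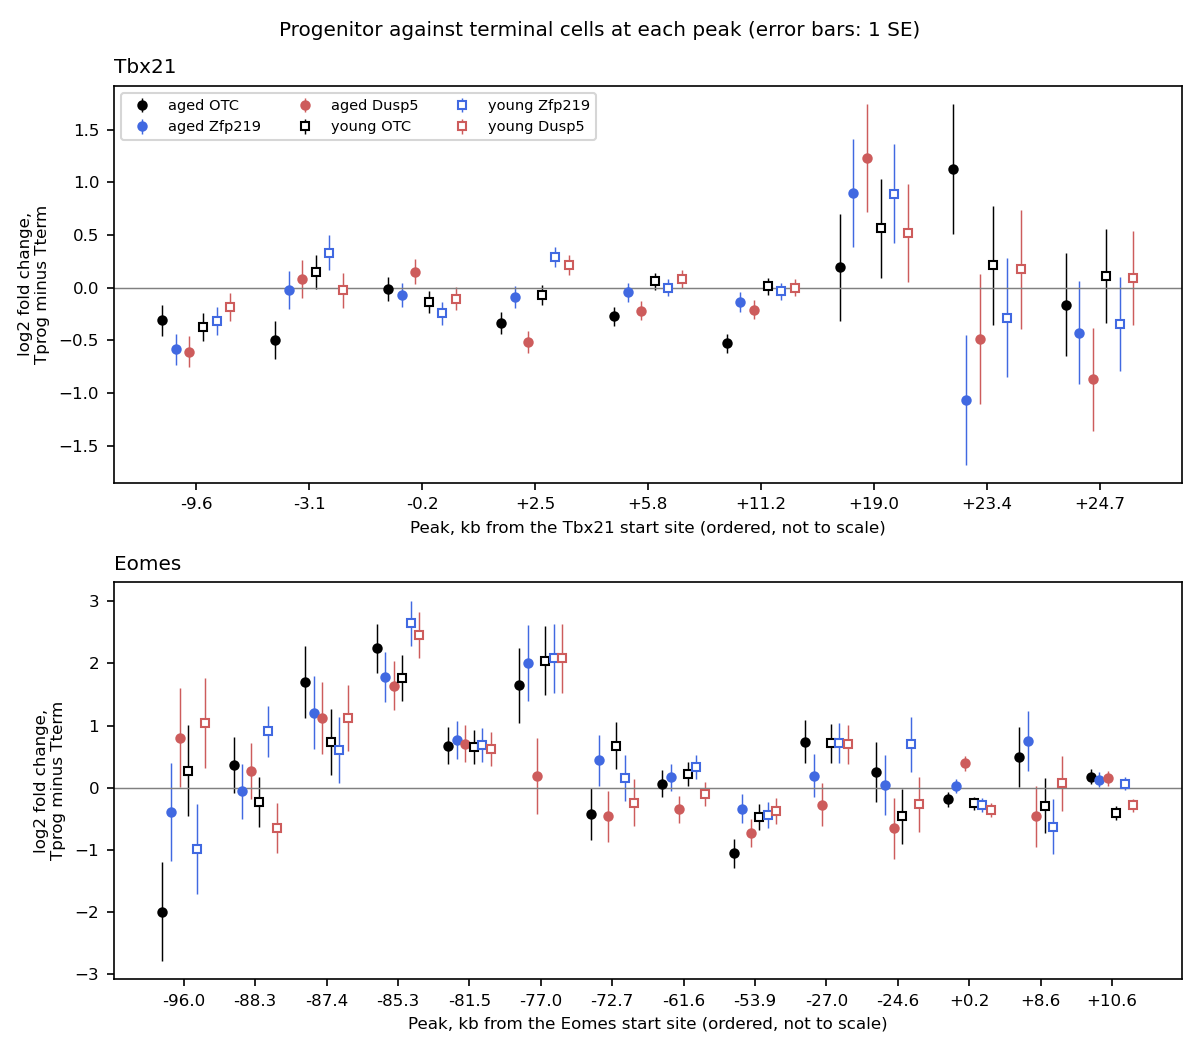
Log2 difference between Tprog and Tterm (± SE) at each of the 23 peaks in the 6 sets of host age and guide; points above 0 are more open in Tprog. Eomes -85.3 kb lies between 1.64 and 2.65 in all 6 sets, Eomes -53.9 kb between -1.06 and -0.34, and the start-site peaks lie on both sides of 0.

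Between Ttran and Tterm limma called 0 to 4 of the 23 peaks in the 6 sets of host age and guide. Among aged controls limma called 0 of the 23 peaks between them, 7 had an unadjusted p under 0.05 and edgeR also called 0; 3.22% of all peaks were called. Young controls had 2 called peaks, both lower in Ttran, where 8.38% of all peaks were called. The first was the Tbx21 start, with the libraries given above, at a log2 difference of -0.42 (SE 0.10, adjusted p = 0.00135), a call that held with any single library left out. The second was Eomes +10.6 kb, with 457, 459.7 and 464 normalized reads in Ttran and 551, 617 and 614 in Tterm and no overlap (-0.37, SE 0.10, adjusted p = 0.00884), lost without 2 of 6 libraries (adjusted p = 0.0575 without young OTC Tterm replicate 2).

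With the Zfp219 guide limma called 0 of the 23 peaks between Ttran and Tterm in either age, where 1.12% of all peaks were called in aged and 2.15% in young hosts; 1 and 5 had an unadjusted p under 0.05 and edgeR called 0. With the Dusp5 guide aged hosts had 3 Eomes peaks called higher in Ttran (1.74% of all peaks called), and edgeR called 1. These were -87.4 kb (2.15, SE 0.58, adjusted p = 0.0295), -81.5 kb (1.06, SE 0.30, adjusted p = 0.0404) and the start (0.40, SE 0.12, adjusted p = 0.0497) by limma, none with overlap. Young Dusp5 cells had 4 called peaks, where 8.89% of all peaks were called. Ttran was higher at Tbx21 +2.5 kb (0.27, SE 0.08, adjusted p = 0.0277) and +5.8 kb (0.22, SE 0.07, adjusted p = 0.0456) and lower at the Eomes start (-0.32, SE 0.09, adjusted p = 0.0196) and Eomes +10.6 kb (-0.30, SE 0.10, adjusted p = 0.0412) by limma. Each of these 7 calls was lost without some single library, in aged hosts at up to 0.225 without aged Dusp5 Ttran replicate 2, 0.836 without aged Dusp5 Tterm replicate 2 and 0.572 without aged Dusp5 Tterm replicate 2, and in young hosts at up to 0.445 without young Dusp5 Ttran replicate 1, 0.308 without young Dusp5 Tterm replicate 2, 0.191 without young Dusp5 Ttran replicate 1 and 0.286 without young Dusp5 Tterm replicate 1. Quantile normalization ended the aged call at the Eomes start (adjusted p = 0.0653) and the young calls at Tbx21 +5.8 kb (0.117) and Eomes +10.6 kb (0.0576).

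The order of Tprog and Tterm at the peak past the end of Eomes, +10.6 kb, differed with host age in control cells. Tprog libraries of young controls had 516 and 384 normalized reads, below the Tterm libraries (-0.41, SE 0.11, adjusted p = 0.00246), a call lost without young OTC Tprog replicate 2 (adjusted p = 0.341). In aged controls Tprog had 519 and 535 and Tterm 459.8 and 472, so Tprog was the higher, but limma did not call this difference. Limma's test of the difference between ages gave 0.59 (SE 0.16, adjusted p = 0.0301), which was lost without 7 of 9 libraries (adjusted p = 0.381 without young OTC Tprog replicate 2). Over all groups the mean of this peak ran from 444 in young Dusp5 Ttran to 594 in young OTC Tterm. Aged means were 508 and 479 in OTC Ttran and Ttad, 556, 582, 509.7 and 519.9 in Zfp219 and 538, 526, 488 and 454 in Dusp5 cells, in the order Tprog, Ttran, Tterm and Ttad. Young Zfp219 cells had 547, 549 and 523, and young Dusp5 Tprog and Tterm had 447 and 548. With Dusp5 the Tprog mean was also above Tterm in aged and below it in young hosts. With Zfp219 it was above Tterm in both ages.

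With the Dusp5 guide, 2 peaks had a Tprog-Tterm difference that differed between host ages, where limma called 7.92% of all peaks. Tbx21 +2.5 kb had 695 and 621 normalized reads in aged Tprog, 913 and 969.6 in aged Tterm, 727 and 776 in young Tprog and 625, 695 and 622 in young Tterm. Aged Tprog lay below aged Tterm, young Tprog lay above young Tterm, and limma's interaction was -0.73 (SE 0.14, adjusted p = 0.00015). The Eomes start had 639 and 552 in aged Tprog, 492 and 417 in aged Tterm, 479 and 497 in young Tprog and 644, 637 and 601 in young Tterm, the opposite arrangement, with an interaction of 0.75 (SE 0.16, adjusted p = 0.000545) by limma. Both calls held with any single library left out. With the Zfp219 guide limma called 0 of the 23 peaks in this test, 2 had an unadjusted p under 0.05 and edgeR called 0, where 0.525% of all peaks were called.

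Ttad cells, analysed here from aged hosts alone, lay between Tprog and Tterm at Eomes -85.3 kb. Control Ttad cells did not at Eomes -77.0 kb, where their mean was below that of Tterm. At -85.3 kb there were 72.1 and 108 normalized reads in control Ttad, above the Tterm libraries and below the Tprog libraries. It was the 1 peak of 23 called between Ttad and Tterm (1.51, SE 0.40, adjusted p = 0.00869), where limma called 7.28% of all peaks, and was lost without 2 of 4 libraries (adjusted p = 0.143 without aged OTC Ttad replicate 2). With Zfp219, Ttad had 73.8 and 66.5 and with Dusp5 98.2 and 122, each above its Tterm libraries. Limma called the Dusp5 difference (1.21, SE 0.40, adjusted p = 0.0472), lost without 3 of 4 libraries (adjusted p = 0.421 without aged Dusp5 Tterm replicate 2), and not the Zfp219 difference (0.74, SE 0.40, adjusted p = 0.468); over all peaks 7.34% and 1.75% were called. Whether the guides differ in it was not tested.

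Against Tprog, control Ttad had 2 called peaks, both higher, with 6.55% of all peaks called. They were Tbx21 +11.2 kb (0.37, SE 0.09, adjusted p = 0.00516) and Eomes -53.9 kb (0.89, SE 0.23, adjusted p = 0.00771) by limma, with the libraries given above and no overlap. Each was lost without 2 of 4 libraries, the first at an adjusted p of 0.145 without aged OTC Ttad replicate 2 and the second at 0.219 without aged OTC Tprog replicate 2, and the Tbx21 call was also lost after quantile normalization (0.0567). Against Ttran, control Ttad was lower at 3 Eomes peaks, where 7.74% of all peaks were called. These were -61.6 kb, with 87.2 and 76.4 normalized reads in Ttad and 132 and 169 in Ttran (-0.87, SE 0.21, adjusted p = 0.00458 by limma), and the weak peaks at -88.3 kb (-1.65) and -96.0 kb (-2.78), where Ttad and Ttran means were 15.5 and 49.1, and 4.93 and 21.6, normalized reads. Between Tprog and Ttran of aged controls 6 peaks were called, where limma called 17% of all peaks. Eomes -85.3 kb was higher in Tprog and 5 were lower: Tbx21 +2.5, +5.8 and +11.2 kb and Eomes -96.0 and -53.9 kb. In young controls 3 were called (16.9% of all peaks), Eomes -85.3 and -81.5 kb higher and -53.9 kb lower in Tprog. After quantile normalization the 3 Tbx21 peaks were not called between aged Tprog and Ttran (adjusted p = 0.0638, 0.137 and 0.106), and each was also lost without a library, at up to 0.191 without aged OTC Tprog replicate 1, 0.0843 without aged OTC Ttran replicate 1 and 0.0773 without aged OTC Ttran replicate 2. So were Eomes -96.0 kb (0.109 without aged OTC Tprog replicate 2) and, in young controls, Eomes -81.5 kb (0.159 without young OTC Tprog replicate 1). The Ttad calls against Ttran were lost without aged OTC Ttran replicate 2 at -61.6 kb (0.105) and without aged OTC Ttad replicate 1 at -88.3 kb (0.244) and -96.0 kb (0.617).

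At Eomes -96.0 kb, the weakest peak, aged means were 2.59, 21.6, 13 and 4.93 normalized reads with OTC, 8.53, 28.4, 14.9 and 10.2 with Zfp219 and 7.86, 15.7, 4.54 and 8.36 with Dusp5, in the order Tprog, Ttran, Tterm and Ttad. Young means were 14.5, 15.4 and 13.7 with OTC, 7.95, 7.22 and 16.8 with Zfp219 and 25.8, 13.7 and 12.1 with Dusp5. Ttran had the highest mean of the aged states with each guide. In 1 library of aged OTC Ttad and 1 of aged Dusp5 Ttad the peak had 0 reads.

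**Figure D4:**
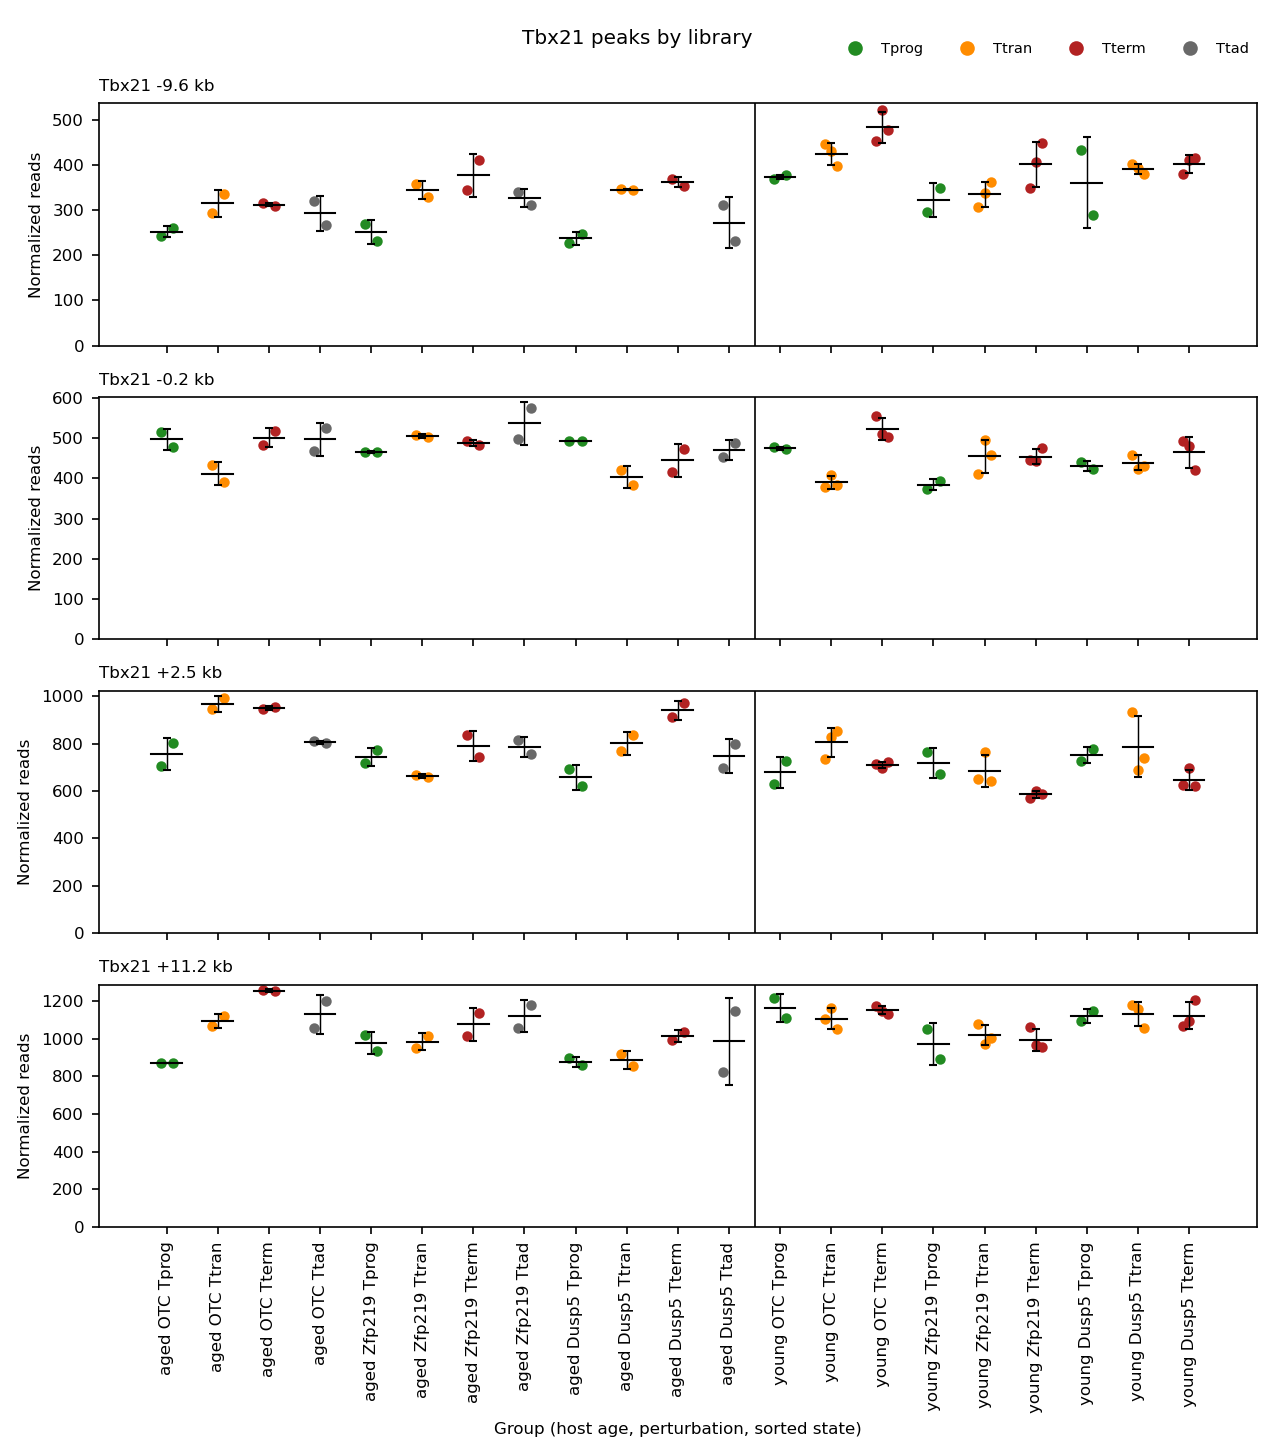
Normalized reads per library at Tbx21 -9.6, -0.2, +2.5 and +11.2 kb in the 21 groups; points are libraries and bars are group means ± SD. Aged control libraries at -9.6 kb (243 to 336) lie below the young control libraries (370 to 521), and at +11.2 kb aged control Tprog (871 and 872) lies below the other control groups.

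Eomes -61.6 kb and Tbx21 -9.6 kb were lower in aged than in young hosts in each shared state of control cells. Eomes -61.6 kb had 95.1 and 113 normalized reads in aged Tprog, 132 and 169 in aged Ttran and 107 and 91.6 in aged Tterm. Young libraries had 241 and 261 in Tprog, 253, 209.5 and 263 in Ttran and 194, 226 and 226 in Tterm. Every aged control library was below every young one, with 118 ± 28.9 (SD, n = 6) against 234 ± 24.8 (SD, n = 8) over the 3 shared states, a log2 difference of -1.02 (SE 0.12, adjusted p = 4.05e-12) by limma. Reads in peaks had a median of 12619905.5 in aged and 16950433.5 in young libraries; the NK cell genes named above had 23.2 to 116 normalized reads per kb in aged and 12 to 107 in young libraries, and peaks in the myeloid genes Cd68, Spi1 and Itgam 140.5 to 190.0 and 179.9 to 212. The part of depth and of other cells in these differences was not tested.

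At Eomes -61.6 kb the same direction held with the other guides. Aged Zfp219 libraries at Eomes -61.6 kb had 124 and 213 in Tprog, 232 and 140.3 in Ttran and 165 and 127 in Tterm, against 243 and 325, then 208, 292 and 221, and 214, 201 and 259 in young hosts. Aged Dusp5 libraries had 115 and 86.7, then 152 and 153, and 140.0 and 117, against 207 and 199.6, then 224, 227 and 211, and 221, 212 and 222. Aged means were the lower in 9 of 9 pairs of state and guide, without overlap in 8 and called by limma in 7. Over all peaks limma called 15.4%, 18.3% and 18.9% in OTC Tprog, Ttran and Tterm, 11.8%, 12.4% and 10% in Zfp219 and 12.5%, 13.2% and 18.2% in Dusp5. Averaged over states the log2 difference was -0.60 (SE 0.12, adjusted p = 2.28e-05) with Zfp219 and -0.77 (SE 0.12, adjusted p = 8.80e-08) with Dusp5 by limma. The calls averaged over states held with any single library left out for each guide. At Tbx21 -9.6 kb aged means were the lower in 8 of 9 pairs, without overlap in 7 and called by limma in 4.

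Limma called 11 of the 23 peaks between aged and young controls averaged over Tprog, Ttran and Tterm, 2 higher and 9 lower in aged hosts, where 36.5% of all peaks were called (17.3% higher and 19.1% lower). At Tbx21 -9.6 kb, with the libraries given above, aged controls had 293 ± 35 (SD, n = 6) and young controls 434 ± 51.7 (SD, n = 8) with no overlap, a log2 difference of -0.54 (SE 0.08, adjusted p = 2.21e-08). The weak peak at Tbx21 +23.4 kb had 10.2 and 11.5 in aged Tprog, 3.01 and 4.78 in Ttran and 2.18 and 8.25 in Tterm against 36.5 and 37.6, then 33.6, 43.8 and 22.2, and 28.4, 60.5 and 18.6 in young cells, again with no overlap. Its log2 difference by limma was -2.35 (SE 0.34, adjusted p = 9.02e-09), the largest of the 23. With the other guides its aged means were 6.40, 11.4 and 14.6 (Zfp219) and 11.1, 9.84 and 15.7 (Dusp5) in Tprog, Ttran and Tterm, and its young means 17.2, 33.1 and 21.6, and 24.4, 24.7 and 22.3. It was lower in aged hosts in 9 of 9 pairs. Ttad means there were 9.56 (OTC), 17.4 (Zfp219) and 17.2 (Dusp5).

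Called lower in aged controls as well were Tbx21 -3.1, +19 and +24.7 kb and Eomes -81.5, -72.7 and -27.0 kb, with log2 differences of -1.05 to -0.24. Those higher in aged controls were Tbx21 +2.5 kb (0.28, SE 0.06, adjusted p = 3.03e-05) and Eomes -85.3 kb (0.53, SE 0.22, adjusted p = 0.0463) by limma. The Eomes -85.3 kb mean was higher in aged hosts in 9 of 9 pairs of state and guide, 6 without overlap and 3 called. Averaged over states it was higher by 0.75 (SE 0.22, adjusted p = 0.00511) with Zfp219 and 0.88 (SE 0.22, adjusted p = 0.000955) with Dusp5. In controls this call was lost without 9 of 14 libraries (adjusted p up to 0.15 without young OTC Ttran replicate 3). Also lost without a single library were the calls at Tbx21 -3.1 kb (up to 0.183 without aged OTC Tterm replicate 2, and 0.0701 after quantile normalization), Tbx21 +19 kb (0.113 without young OTC Tprog replicate 1), Eomes -81.5 kb (0.241 without aged OTC Ttran replicate 2) and Eomes -72.7 kb (0.0991 without aged OTC Ttran replicate 2), and the other 6 held. With Zfp219 limma called 10 of the 23 peaks by age (30.3% of all peaks) and with Dusp5 8 (31.8%). Among the latter, Tbx21 +11.2 kb was lower in aged hosts without overlap (-0.28, SE 0.05, adjusted p = 4.05e-06).

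**Figure D5:**
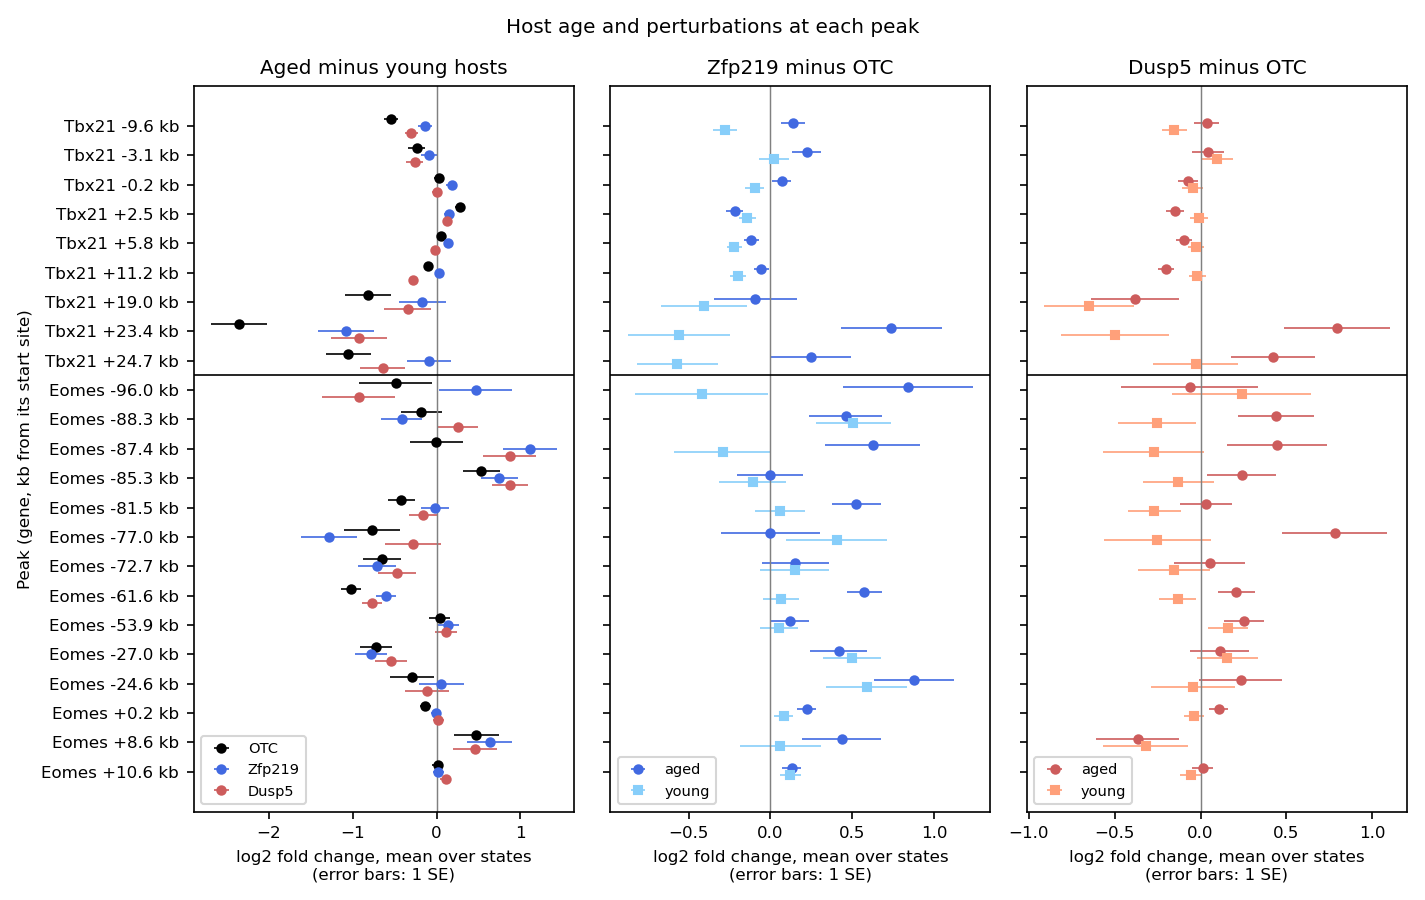
Log2 differences (± SE) of the 23 peaks between aged and young hosts for each guide, averaged over Tprog, Ttran and Tterm, and between each guide and OTC in aged and in young hosts. Eomes -61.6 kb lies below 0 by host age with every guide (-1.02, -0.60 and -0.77) and above 0 for Zfp219 against OTC in aged hosts (0.57).

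The Zfp219 guide, directed at a zinc finger protein gene, had 4 of 14 Eomes peaks called higher and 2 of 9 Tbx21 peaks called lower than OTC in aged hosts. Averaged over the 4 states limma called 6 of the 23 peaks, 4 higher and 2 lower than OTC, where 25.8% of all peaks were called (12.1% higher and 13.7% lower). The share of the 23 peaks called was thus near that of all peaks. The higher ones were all Eomes. At -61.6 kb Zfp219 cells had 162 ± 39.8 (SD, n = 8) normalized reads against 109 ± 29.8 (SD, n = 8), with overlapping libraries and a log2 difference of 0.57 (SE 0.11, adjusted p = 1.26e-05). Ttad differed most, with 145 and 148 against 87.2 and 76.4 (0.84, SE 0.21, adjusted p = 0.00574 by limma, 8.23% of all peaks called), a call lost without 2 of 4 libraries (adjusted p = 0.0713 without aged OTC Ttad replicate 2). The Dusp5 means at this peak were 101, 153, 128 and 116 in aged Tprog, Ttran, Tterm and Ttad.

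Eomes -24.6 kb (chr9:118453404-118453863) was the peak with the largest log2 difference, 0.88 (SE 0.24, adjusted p = 0.00363) by limma. Its aged means with Zfp219 were 40.9, 52.4, 39.8 and 34.1 normalized reads in Tprog, Ttran, Tterm and Ttad, with OTC 27, 18.6, 24.9 and 17.8, and with Dusp5 21.9, 19.7, 35.1 and 25.6. Young means were 57.3, 38.4 and 35.1 with Zfp219, 24.2, 26.2 and 34.2 with OTC, and 23, 32 and 28 with Dusp5. The Zfp219 mean was above OTC in all 7 pairs of age and state. Also higher in aged Zfp219 cells were Eomes -81.5 kb (0.53, SE 0.15, adjusted p = 0.00499) and the Eomes start (0.22, SE 0.06, adjusted p = 0.0019, 572 ± 40.5 (SD, n = 8) against 491 ± 40.7 (SD, n = 8)). In aged Ttran alone limma called 3 peaks, where 14.2% of all peaks were called: Eomes -24.6 kb (1.42, lost on leaving out any of the 4 libraries, adjusted p up to 0.279 without aged Zfp219 Ttran replicate 1), the Eomes start (0.34, lost without 3 of 4, up to 0.305 without aged Zfp219 Ttran replicate 2, and after quantile normalization, 0.0568) and Tbx21 +2.5 kb (-0.54, SE 0.10, adjusted p = 6.03e-05, held without each).

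The lower peaks of aged Zfp219 cells lay in the Tbx21 body. At +2.5 kb aged Zfp219 libraries had 717 and 772 normalized reads in Tprog, 669 and 659 in Ttran, 835 and 744 in Tterm and 816 and 758 in Ttad. Control libraries had 708 and 804, then 945 and 992, then 945 and 956, and 809.9 and 802. The log2 difference averaged over states was -0.22 (SE 0.05, adjusted p = 0.000735) by limma, and Ttran and Tterm libraries did not overlap those of OTC. At +5.8 kb it was -0.12 (SE 0.04, adjusted p = 0.0442), lost after quantile normalization (adjusted p = 0.321) and without 13 of 16 libraries (up to 0.119 without aged OTC Ttran replicate 1). Aged Dusp5 means were 803 in Ttran and 749 in Ttad at this +2.5 kb peak. Young means at +2.5 kb were 679, 805 and 711 with OTC, 719, 686 and 587 with Zfp219 and 751, 788 and 648 with Dusp5.

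In young hosts limma called 3 Tbx21 peaks lower with the Zfp219 guide than with OTC and no Eomes peak, with 7.07% of all peaks called. The strongest Tbx21 peak, +5.8 kb, had 932 and 1012 in Zfp219 Tprog, 951, 1146 and 1181 in Ttran and 869, 1017 and 1035 in Tterm. Controls had 1138 and 1167 in Tprog, 1205, 1222 and 1418 in Ttran and 1136, 1087 and 1088 in Tterm. No library of a state overlapped its control, and the log2 difference was -0.22 (SE 0.05, adjusted p = 0.000417). In Ttran alone it was -0.23 (limma adjusted p = 0.0401, 5.88% of all peaks called), a call lost without 3 of 6 libraries (up to 0.357 without young Zfp219 Ttran replicate 1) and after quantile normalization (0.219). The log2 difference was -0.28 (SE 0.07, adjusted p = 0.0101) at Tbx21 -9.6 kb and -0.20 (SE 0.05, adjusted p = 0.00271) at +11.2 kb by limma. Without young Zfp219 Tprog replicate 1 the -9.6 kb call was lost (adjusted p = 0.066), and the +11.2 kb call was lost after quantile normalization (0.0714).

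Means at +5.8 kb in the remaining groups were 1058, 1343, 1277 and 1234 in aged OTC, 1071, 1167, 1103 and 1176 in aged Zfp219 and 1012, 1241, 1185 and 1163 in aged Dusp5, in the order Tprog, Ttran, Tterm and Ttad, and 1142, 1253 and 1079 in young Dusp5. Ttran had the highest mean at this peak in every guide of young hosts. The effect of the Zfp219 guide differed between host ages at 1 of 23 peaks, Tbx21 -9.6 kb, where limma called 9.11% of all peaks. The interaction, aged minus young, was 0.41 (SE 0.11, adjusted p = 0.0114): the mean of Zfp219 was below OTC in 3 of 3 young states and in 1 of the 3 matching aged states. It held with any single library left out.

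The Dusp5 guide, directed at a nuclear phosphatase of ERK, had 2 called peaks in aged hosts, both lower and both in the Tbx21 body, where 12.2% of all peaks were called. At +11.2 kb aged Dusp5 libraries had 896 and 859 normalized reads in Tprog, 921 and 855 in Ttran, 991 and 1037 in Tterm and 823 and 1149.7 in Ttad, below the control libraries without overlap in Ttran and Tterm. The log2 difference averaged over states was -0.20 (SE 0.05, adjusted p = 0.00092) by limma, and single-state differences were -0.30 in Ttran (adjusted p = 0.0448, 3.8% of all peaks called) and -0.31 in Tterm (0.0366, 4.11%), both lost on leaving out any of the 4 libraries, at up to 0.305 without aged Dusp5 Ttran replicate 2 and 0.184 without aged OTC Tterm replicate 1. Quantile normalization ended both single-state calls (adjusted p = 0.272 and 0.328). At +2.5 kb the averaged difference was -0.15 (SE 0.05, adjusted p = 0.0455), lost without 10 of 16 libraries (up to 0.139 without aged OTC Tprog replicate 2). After quantile normalization neither averaged difference was called (adjusted p = 0.0979 at +11.2 kb and 0.403 at +2.5 kb); the strongest 10% of all peaks had a median log2 difference of -0.08 before it.

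In aged Ttad alone the Dusp5 guide had 1 called peak, Eomes -77.0 kb, with 35.2 and 35.1 normalized reads against 6.71 and 4.93 in OTC (2.42, SE 0.61, adjusted p = 0.013 by limma, 2.88% of all peaks called). It was lost on leaving out any of the 4 libraries, at an adjusted p of up to 0.0853 without aged OTC Ttad replicate 2. In young hosts limma called 0 of 23 peaks for Dusp5 against OTC, 2 had an unadjusted p under 0.05 and edgeR called 0, where 3.82% of all peaks were called. The test of the Dusp5 effect between host ages called 0 of 23 by limma and by edgeR, with 3 at an unadjusted p under 0.05 and 4% of all peaks called. The aged and young contrasts of each guide, and the contrasts of both guides in an age, share their OTC libraries or their states and are given side by side only.

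Genes around this pathway were read from lists. Of 131 peaks at 14 genes known as T-box targets in cytotoxic cells, limma called 61 lower and 11 higher in Tprog than in Tterm of aged controls (55.0% called against 20.1% of all peaks, median log2 difference -0.38 against 0.01), and 57 lower and 19 higher in young controls (58.0% against 26.5%, median -0.30). Effector genes led the lower calls: Ifng, encoding interferon-gamma, had 20 of 27 peaks lower in aged and 17 in young controls, Gzmb (granzyme B) 5 and 8 of 9, Prf1 (perforin) 3 and 5 of 6, Ccl3 4 and 4 of 4, Ccl4 4 and 4 of 4, Ccl5 7 and 5 of 7, and Il2rb, the receptor chain tied to Eomes, 5 and 3 of 5. The higher calls were at the chemokine gene Xcl1, with 6 and 12 of 18 peaks, at the chemokine receptors Cxcr3 (2 and 2 of 5) and Cx3cr1 (1 and 2 of 5), at Fasl (2 and 2 of 19, with 4 and 4 lower) and, in young controls, at S1pr5 (1 of 2). In Ttad of aged controls 32 target peaks were lower and 4 higher than in Tterm (27.5% called against 7.28% of all peaks, median -0.24), and 27 were higher and 2 lower than in Tprog (22.1% against 6.55%, median 0.18).

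Of 195 peaks at 15 inducers and partners of the T-box factors, 25 were called higher and 41 lower in aged and 34 higher and 42 lower in young control Tprog against Tterm (33.8% called against 20.1% of all peaks and 39.0% against 26.5%, medians -0.16 and -0.10). Tcf7, the factor of progenitor cells, had 8 and 10 of 12 peaks higher, Stat4, which carries interleukin-12 signals, 4 and 4 of 19 higher, and Bcl6 3 and 2 of 5 higher, with 1 lower in young controls. Prdm1, encoding Blimp-1, had 13 and 11 of 22 lower, Zeb2 6 and 9 of 21 lower with 1 higher in each, and Runx3 10 of 23 lower in aged and 5 lower with 3 higher in young controls. The other T-box family genes had 32 peaks at 9 of 15 genes, none at Tbx3, Tbx5, Tbx6, Tbx10, Tbx20 or Tbx22, with 3 called higher and 2 lower in each age (15.6%, below the 20.1% and 26.5% of all peaks, medians 0.18 and 0.06). By host age, 30 target peaks were higher and 28 lower in aged controls (44.3% against 36.5% of all peaks, median -0.04), among them 11 of 18 at Xcl1 higher. Peaks at inducers and partners numbered 34 higher and 56 lower (46.2% against the same 36.5%, median -0.04).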

How the data were processed

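ATAC-seq libraries of sorted CD8 T cells were analysed from 1 deposited table of 53868 peaks and 48 libraries, in mm10 coordinates. Per the submitters' processing notes the tools included Bowtie2 2.2.9, Picard 2.8.0, SAMtools 1.3.1, MACS2 2.1.1 and DESeq2 1.28.1; their settings are not given in the sources used here. The deposited values are a signal, reads per peak that the authors divided by a size factor for each library; 100% of values were whole multiples of the value of a read (tolerance 1e-06), and the recovered reads served edgeR alone.

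Here limma 3.58.1 (R 4.3.3) was fitted to log2(value + 1) over all peaks with 21 group means (15 groups of 2 and 6 of 3 libraries, 27 residual degrees of freedom) and trended variance, with Benjamini-Hochberg adjustment over all peaks and a call at an adjusted p under 0.05. The fit was repeated with a pseudocount of 8, without the weakest 25% of peaks, after quantile normalization, with edgeR 4.0.16 (quasi-likelihood, TMM), with a replicate block and with each library left out. The fits were tested on simulated data. Genes were assigned with RefSeq GRCm38.p6 gene bodies. Reads of replicate pairs differed beyond counting noise (chi-square per degree of freedom of 2.787 to 4.529 over 33 pairs).

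The genes, lists and tests were chosen with earlier results of these data known. Values in every group are given for the strongest and the start-site peak of each gene and, per comparison whose count of called peaks was repeated under each alternative, the called peak of each gene with the largest change. Eomes -96.0 kb was added, as were other named peaks with fewer groups, after their values were seen. The result for 1 marker gene of the fixed lists is not reported here.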

Additional observations from a re-analysis of the deposited data

Results flagged for a closer look

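A set of 5 results differed between host ages in limma's interaction contrasts (Benjamini-Hochberg adjustment over all peaks). The effect of the Zfp219 guide at Tbx21 -9.6 kb differed by 0.41 on the log2 scale, aged minus young (SE 0.11, adjusted p = 0.0114). Limma called 9.11% of all peaks in that contrast. The Tprog-Tterm difference of control cells differed by -0.54 at Tbx21 +11.2 kb (SE 0.13, adjusted p = 0.00523) and by 0.59 at Eomes +10.6 kb (SE 0.16, adjusted p = 0.0301). Of all peaks 2.32% were called there. The Tbx21 +11.2 kb call was lost after quantile normalization and without young OTC Tprog replicate 1. The Eomes +10.6 kb call stayed on leaving out 2 of 9 libraries and was lost on leaving out any of the others. With the Dusp5 guide the Tprog-Tterm difference differed by -0.73 at Tbx21 +2.5 kb (SE 0.14, adjusted p = 0.00015) and by 0.75 at Eomes +0.2 kb (SE 0.16, adjusted p = 0.000545). For that guide 7.92% of all peaks were called. Host age and the batch of libraries cannot be told apart in any of them.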

How the results depend on the processing

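Of the 23 peaks, the count called between Tprog and Tterm of young controls was 4 by limma and 8 by edgeR. Quantile normalization moved the count from 2 to 1 for Ttad against Tprog, from 2 to 0 for Dusp5 against OTC in aged hosts and from 2 to 1 for the Tprog-Tterm difference between host ages in controls; the cause was not tested. It also exchanged calls where the count moved less: for Tprog against Tterm, 5 of 8 aged control calls were shared, with Tbx21 +2.5 kb (adjusted p = 0.113), Tbx21 +5.8 kb (0.314) and Eomes -77.0 kb (0.0764) lost, and 3 of 4 young ones, with Tbx21 -9.6 kb (0.0534) lost. By host age 10 of 11 control calls were shared, with Tbx21 -3.1 kb (0.0701) lost. For Zfp219 against OTC, 5 of 6 aged calls were shared, with Tbx21 +5.8 kb (0.321) lost, and 2 of 3 young ones, with Tbx21 +11.2 kb (0.0714) lost.

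The replicate block moved the count for the Tprog-Tterm difference between host ages in controls from 2 to 1, since Eomes +10.6 kb was not called (adjusted p = 0.0557), and by host age in controls it ended the calls at Tbx21 -3.1 kb (0.0599) and Eomes -85.3 kb (0.0605). Same-numbered libraries showed no shared deviation over all peaks: their deviations correlated at -0.015 to 0.017, and none was over 0.1. Whether they share mice is not recorded, and these correlations cannot show it.

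With each library left out in turn, counts ran from 3 to 5 (8 with all libraries) for Tprog against Tterm in aged and 2 to 4 in young controls, 0 to 0 and 1 to 3 for Ttran against Tterm in aged and young controls, 0 to 1 for Ttad against Tterm and 0 to 2 for Ttad against Tprog. They ran from 8 to 11 by host age in controls, 5 to 7 and 2 to 4 for Zfp219 in aged and young hosts, 1 to 3 and 0 to 0 for Dusp5, 1 to 2 for the Zfp219 effect and 0 to 1 for the Dusp5 effect between ages, and 1 to 2 for the Tprog-Tterm difference between ages.

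Of 121 called differences of single peaks, 43 stayed called with each library left out in turn and 78 were lost without at least 1 library. After quantile normalization 90 stayed called, with the replicate block 113, with edgeR 117 and with a pseudocount of 8 121, and of the 100 among the peaks kept when the weakest 25% were removed, 100. None reversed in these settings. Peaks under about 30 normalized reads, such as Eomes -96.0 and -77.0 kb, rest on few reads, and groups of 2 libraries limit every single-state comparison.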
